A study of Homo sapiens with 10 samples.

Results

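Mitochondria import nearly all of their proteins from the cytosol and exchange metabolites with it through carriers of the inner membrane. The genes described here are those whose symbol starts with TOMM, TIMM or SLC25A followed by a digit and that have a protein-coding transcript, 72 of the 60504 genes in the deposited tables. They comprise 10 TOMM genes of the outer membrane translocase, 14 TIMM genes of the inner membrane translocases and intermembrane space chaperones, and 48 SLC25A carriers. RNA was sequenced from Caco-2 cells, a line from a human colon carcinoma that forms polarized monolayers. Every library came from Caco-2 cells derived from a monoclonal line, selected with puromycin, that expressed dCas9-KRAB, a cleavage-dead Cas9 fused to a transcriptional repressor domain. In gCtl (5 libraries) the cells had received an empty guide plasmid with the U6 promoter and hygromycin resistance, and in g1 (3 libraries) and g2 (2 libraries) that plasmid carried 1 of a pair of guides against the lncRNA LHFPL3-AS2. All 10 libraries thus shared the repressor line, and the labels do not say which libraries came from separate cultures, so p-values measure the spread between these libraries, which may be technical.

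Preproteins first meet the TOM complex, in which TOMM20, TOMM22 and TOMM70 serve as receptors, TOMM40 forms the pore and the small subunits TOMM5, TOMM6 and TOMM7 assemble around it. Precursors with a presequence pass on to the TIM23 complex and its motor, whereas carrier precursors are handed by the small TIM chaperones to the TIM22 complex. Most SLC25 proteins themselves use the latter route, and they move ADP and ATP, phosphate, carboxylates, amino acids, carnitine esters, iron and cofactors across the inner membrane. In enterocytes this supplies the ATP and the intermediates for absorption and lipid handling.

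By qPCR, the paper reports that both guides depleted LHFPL3-AS2. In the sequencing, LHFPL3-AS2 itself was not lower in the libraries labelled g1 and g2. It stood at 1.73, 0.840, 3.73, 1.73 and 3.12 RPM (counts in 1000000 of the library total) in gCtl, at 3.07, 3.95 and 2.03 in g1, and at 2.16 and 6.01 in g2, with between 4.39 and 44.0 estimated counts per library. The groups overlapped, and the difference of 0.47 in mean log2(RPM + 1), higher in the knockdown libraries, had an exact two-sided permutation p of 0.190, where the smallest possible value was 0.00794. The directions below are therefore those of the libraries labelled g1 and g2. Depth was 3838803 to 8730468 estimated counts per library, of which the members took 0.283 to 0.347% in gCtl, 0.245 to 0.297% in g1 and 0.207 to 0.215% in g2. Mitochondrially encoded genes took 18.3 to 23.97% in gCtl, 18.99 to 20.6% in g1 and 12.0 to 16.8% in g2. Of 10 epithelial markers 9 were tested, and EPCAM averaged 747 RPM in gCtl. Of 10 markers of immune, stromal and endothelial cells 3 were tested, and the list summed to 18.96 to 28.9 RPM in gCtl and 23.9 to 42.9 RPM in the knockdown libraries. None of either list passed the test given below in the knockdown comparison, while the endothelial marker PECAM1 was higher with g1 (log2 fold change 1.28, adjusted p = 0.0215, edgeR) and the epithelial marker KRT20 with g2, against gCtl (1.93, adjusted p = 0.00286, edgeR) and against g1 (1.67, adjusted p = 0.0396, edgeR). Their part in the results below was not tested.

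Of the 72 members, 57 were tested, namely 9 TOMM, 14 TIMM and 34 SLC25A genes. The filter asked for more than 3 RPM in 20% of libraries or more. A gene passed the test when its Benjamini-Hochberg adjusted p in edgeR's quasi-likelihood test was at most 0.05 and its fold change at least 1.5. In the knockdown comparison, g1 and g2 together against gCtl, 13 of the 57 members passed (22.8%), against 19.2% of all 11633 genes tested. Of these, 12 were lower (21.1%, against 10.8% of all genes) and 1 was higher (1.75%, against 8.31%). The libraries did not overlap between the groups for 9 members that were lower and 1 that was higher, against 8.29% and 7.27% of all genes. The median log2 fold change was −0.20 over the tested members and 0.03 over all genes, and 38 members (66.7%) were below 0 against 47.8% of all genes. Levels below are CPM (as RPM, after TMM scaling), not divided by transcript length because reads start at the 3′ end. Fewer cells of a kind and less RNA per cell cannot be told apart in these bulk libraries.

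**Figure D1:**
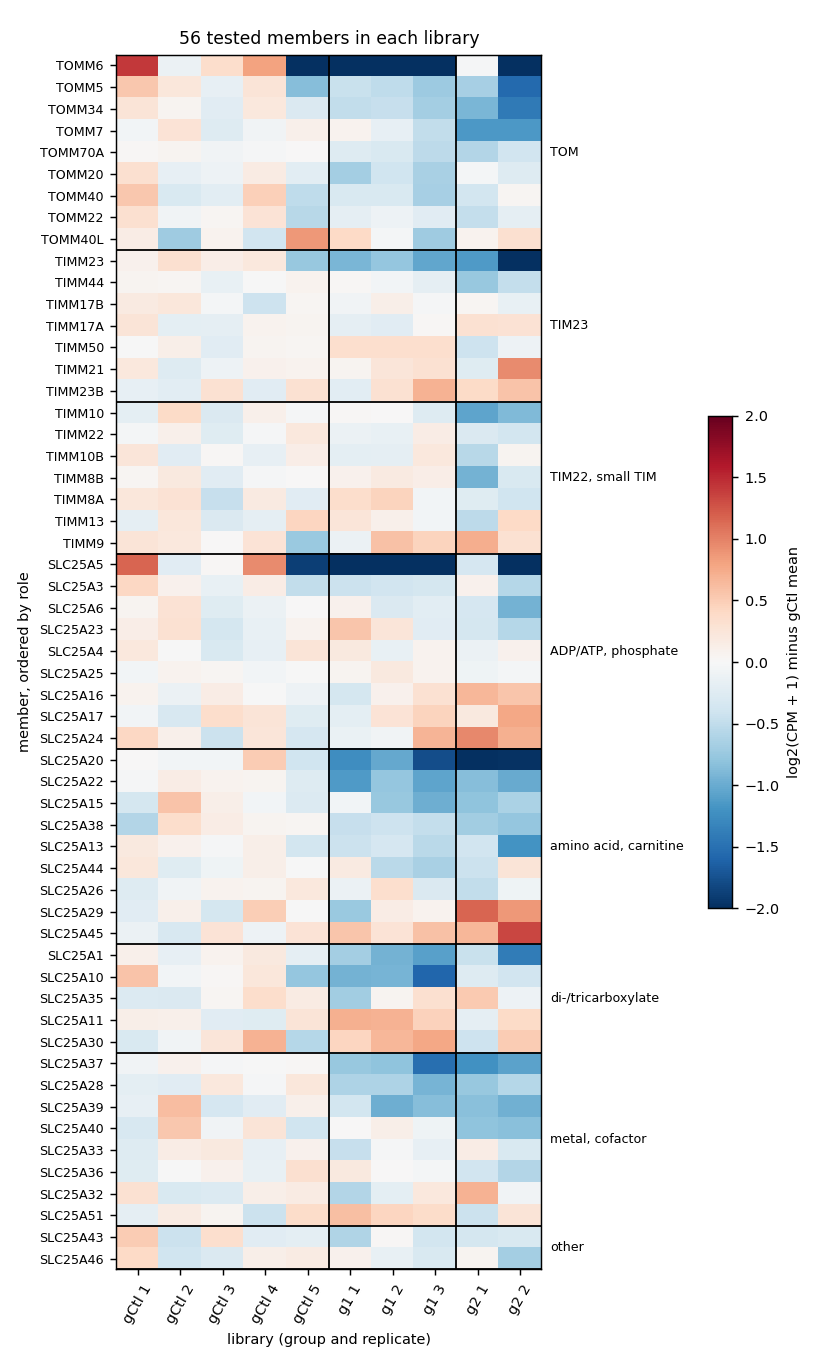
Heat map of 56 of the 57 tested members (rows, grouped by role) in the 10 libraries (columns), coloured by log2(CPM + 1) minus the gCtl mean of the same gene; colours saturate at −2 and 2. SLC25A37, SLC25A20 and SLC25A22 are blue in all 5 knockdown libraries, whereas SLC25A5 and TOMM6 are blue in gCtl replicate 5 too and near the gCtl mean in g2 replicate 1.

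Of 9 tested TOMM genes, 3 passed the test as lower in the knockdown comparison (TOMM34, TOMM5 and TOMM6), where 10.8% of all genes did, and none as higher, and the median log2 fold change was −0.41. TOMM6 shares sequence with an overlapping gene, as described below, and the part of read assignment in its call was not tested. TOMM34 is not a subunit of the membrane complex. TOMM34, a cytosolic cochaperone of import, was at 154, 133, 109.9, 149.5 and 105 CPM in gCtl, at 91.5, 93.3 and 80.5 CPM in g1 and at 67.9 and 47.7 CPM in g2. All knockdown libraries lay below all gCtl libraries, and the log2 fold change was −0.78 (SE 0.18, adjusted p = 0.00717, edgeR), or 1.71-fold lower. TOMM5, a small subunit of the complex, was at 104, 84.6, 64.1, 85.8 and 39.2 CPM in gCtl, at 52.3, 50.5 and 43.2 CPM in g1 and at 44.7 and 23.9 CPM in g2. Here gCtl replicate 5 lay below 4 of the 5 knockdown libraries, and the log2 fold change was −0.81 (SE 0.24, adjusted p = 0.0250, edgeR). Without gCtl replicate 1, 2 or 4 the adjusted p of TOMM5 was 0.0741, 0.0615 or 0.0618. All 370 words of 31 bases in the last 400 bases of TOMM5 also occur in AL138752.2, which had 12.6, 7.1 and 14.6 counts in gCtl, g1 and g2. TOMM70A, the receptor for carrier precursors, fell short of the fold-change minimum and is named because its groups were seen not to overlap: it was at 138 to 150.3 CPM in gCtl and at 95.7 to 121 CPM in the knockdown libraries, 1.33-fold lower (log2 fold change −0.41, SE 0.12, adjusted p = 0.0185, edgeR).

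TOMM6, another small subunit, had a larger fold change, and the part of read assignment in it could not be settled here. Its level was 49.4, 16.4, 23.0, 32.0 and 2.42 CPM in gCtl, 2.30, 1.45 and 1.18 CPM in g1, and 17.6 and 3.10 CPM in g2. The log2 fold change was −2.27 (SE 0.71, adjusted p = 0.0298, edgeR), yet gCtl replicate 5 was inside the range of the knockdown libraries and g2 replicate 1 inside that of gCtl. A readthrough transcript of the neighbouring gene PRICKLE4, on the same strand, holds the whole of 1 TOMM6 transcript (100% of its 607 words of 31 bases) and 95.04% of the words of the other. Kallisto gave PRICKLE4 249, 222, 163, 202 and 168 CPM in gCtl, 239, 217 and 198 CPM in g1, and 278 and 194 CPM in g2. The sum of both genes was 298, 238, 186, 234 and 170.1 CPM in gCtl, 241, 219 and 199.6 CPM in g1, and 296 and 197 CPM in g2. For that sum, an alternative chosen after the data were seen, the log2 fold change was 0.03 (SE 0.17, adjusted p = 0.910, edgeR). With g1 the sum had a log2 fold change of −0.04 (SE 0.18, adjusted p = 0.913, edgeR). Neither call was kept for the sum, but the sum cannot decide on TOMM6. PRICKLE4 averaged 201 CPM in gCtl against 24.6 CPM for TOMM6, so even complete loss of TOMM6 would leave the sum short of 1.5-fold. The call for TOMM6 alone was also lost without gCtl replicate 1, 3 or 4, any g1 library or g2 replicate 2, with adjusted p between 0.0529 and 0.0917.

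Over all its transcripts, TOMM7, a small subunit that also retains the kinase PINK1 at the outer membrane, was lower with g2 and not with g1. It was at 480.2, 601, 415, 472 and 535 CPM in gCtl, at 522, 443 and 353 CPM in g1, and at 223 in both g2 libraries. The g2 libraries lay far below all others, and the log2 fold change was −1.17 against gCtl (SE 0.19, adjusted p = 0.000559, edgeR) and −0.98 against g1 (SE 0.20, adjusted p = 0.0106, edgeR). Without g1 replicate 1 the latter was −0.84 (adjusted p = 0.0508). Transcripts annotated as protein-coding held 57.4% of the TOMM7 counts and a processed transcript 42.0%. In estimated counts not scaled for depth, the processed transcript had 358 to 898 in gCtl, 1379, 915 and 964 in g1, and 361 and 311 in g2. The protein-coding transcript with most counts had 364 to 1224 in gCtl, 241, 274 and 609 in g1, and 381 and 536 in g2. Another had 226 to 687 in gCtl, 383, 120 and 199 in g1, and 2.09e-06 and 30.8 in g2. The remaining coding transcript had 40.6 to 102 in gCtl, 88.2 to 127 in g1, and 69.7 and 119 in g2. The coding transcript with most counts thus did not set g1 apart from g2 as the gene total did. The part of the split among transcripts in the difference between the guides was not tested. TOMM20, the presequence receptor, passed the test with g1 alone, where it was 1.51-fold lower (log2 fold change −0.59, SE 0.16, adjusted p = 0.0146, edgeR). Its level was 68.5, 83.6 and 70.3 CPM in g1 against 95.8 to 138 CPM in gCtl, and the g2 libraries at 108 and 92.2 CPM overlapped gCtl. Without gCtl replicate 1 or 4 the log2 fold change of TOMM20 was under the minimum, and without g1 replicate 1 or 3 its adjusted p was 0.0658 or 0.0618. TOMM22, TOMM40 and TOMM40L passed in no comparison.

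**Figure D2:**
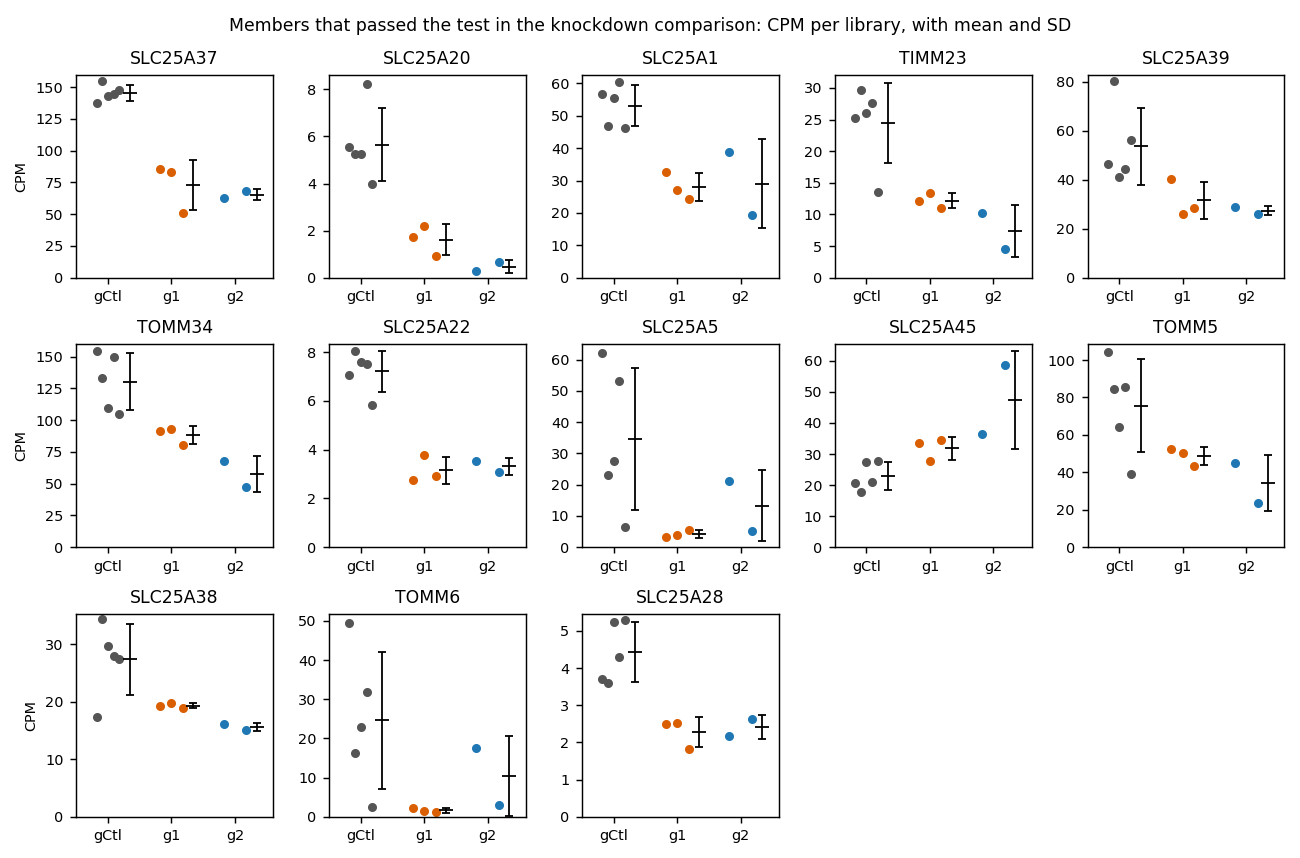
CPM of the 13 members that passed the test in the knockdown comparison, 1 panel a gene on a linear axis from 0; points are libraries (5 gCtl, 3 g1, 2 g2) and bars the mean with SD of each group. The knockdown points lie apart from the gCtl points for 9 genes and among them for SLC25A38, SLC25A5, TOMM5 and TOMM6.

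Of the 7 genes of the TIM23 complex, TIMM23, the channel subunit, was lower in the knockdown libraries and no other passed in that comparison. TIMM23 was at 25.2, 29.7, 26.1, 27.7 and 13.6 CPM in gCtl, at 12.1, 13.5 and 11.03 CPM in g1 and at 10.3 and 4.51 CPM in g2. The groups did not overlap, although gCtl replicate 5 lay just above the highest g1 library. The log2 fold change was −1.24 (SE 0.28, adjusted p = 0.00545, edgeR), with −0.9996 (SE 0.29, adjusted p = 0.0230) in g1 and −1.72 (SE 0.36, adjusted p = 0.00314) in g2. The g1 call was lost without gCtl replicate 2 or 4 or g1 replicate 1 or 3 (adjusted p 0.0564, 0.0544, 0.0679 and 0.0929), and the g2 call without g2 replicate 2 (0.0582).

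TIMM23 has a copy, TIMM23B, on the same chromosome, which shares its upstream sequence and part of its transcript. In GENCODE 29 on GRCh38, TIMM23 (ENSG00000265354.3) lies at chr10:45972449-46003734 and TIMM23B (ENSG00000204152.10) at chr10:49942033-49974850, both on the plus strand. The following 210 bases upstream of each, from RefSeq promoter windows on GRCh38.p14 (chr10:45972239-45972448 and chr10:49941809-49942018, plus strand), show how alike the copies are there. They agree at 207 of 210 positions, and capitals mark the 3 that differ. Over the whole aligned run of the windows, which goes on past the starts, 240 of 244 positions agree.
TIMM23: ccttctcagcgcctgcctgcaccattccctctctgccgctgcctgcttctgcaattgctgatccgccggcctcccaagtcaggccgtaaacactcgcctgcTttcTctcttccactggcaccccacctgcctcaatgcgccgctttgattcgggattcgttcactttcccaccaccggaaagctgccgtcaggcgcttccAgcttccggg
TIMM23B: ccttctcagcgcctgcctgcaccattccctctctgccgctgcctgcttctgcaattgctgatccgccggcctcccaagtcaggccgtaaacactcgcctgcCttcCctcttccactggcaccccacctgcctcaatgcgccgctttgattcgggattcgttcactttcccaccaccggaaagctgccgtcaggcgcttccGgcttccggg
Over the transcripts, 25.1% of the 31-base words of TIMM23 also occur in a TIMM23B transcript annotated as a target of nonsense-mediated decay, all between bases 57 and 690 and none in the last 400 bases. TIMM23B was at 27.6, 26.6, 38.7, 26.3 and 38.6 CPM in gCtl, at 26.7, 38.6 and 51.0 CPM in g1 and at 41.0 and 46.6 CPM in g2 (log2 fold change 0.36, SE 0.19, adjusted p = 0.179, edgeR). The sum of the pair was 52.7, 56.3, 64.8, 54.0 and 52.1 CPM in gCtl, 38.9, 52.02 and 62.1 CPM in g1, and 51.3 and 51.2 CPM in g2. For the sum the log2 fold change was −0.13 (SE 0.14, adjusted p = 0.535, edgeR), and with g1 and with g2 it was −0.13 each (adjusted p = 0.610 and 0.640). None of the TIMM23 calls was kept for the sum, but the sum could not have kept them. TIMM23 averaged 24.5 CPM in gCtl, 12.2 CPM in g1 and 7.39 CPM in g2. With TIMM23B unchanged at its gCtl mean of 31.5 CPM, that fall would leave the sum short of 1.5-fold.

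**Figure D3:**
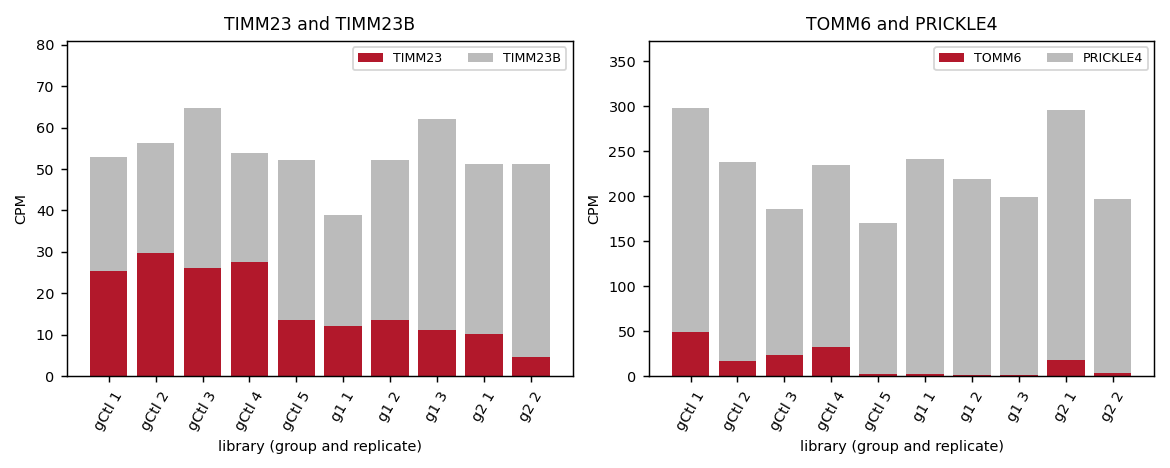
Stacked bars of CPM in each library for TIMM23 with TIMM23B (left) and TOMM6 with PRICKLE4 (right), on linear axes from 0. The red part is smaller in every knockdown library than in any gCtl library for TIMM23, whereas for TOMM6 it overlaps between the groups (17.6 CPM in g2 replicate 1 against 16.4 in gCtl replicate 2), and the height of the whole bar overlaps between gCtl and the knockdown libraries in both panels.

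TIMM44, which tethers the import motor to the channel, was lower with g2 (log2 fold change −0.62, SE 0.15, adjusted p = 0.00862, edgeR), at 72.9 and 88.6 CPM against 111 to 129.5 CPM in gCtl. Without g2 replicate 1 its log2 fold change of −0.50 was under the minimum. Transcripts annotated as protein-coding held 3.75% of the TIMM44 counts and a retained-intron transcript 67.1%. In estimated counts not scaled for depth, the latter had 238 to 359 in gCtl, 255 to 399 in g1, and 154 and 142 in g2. A nonsense-mediated decay transcript had 59.0 to 115 in gCtl, 112 to 187 in g1, and 99.3 and 247 in g2. TIMM50, the presequence receptor of the inner membrane and the member of this complex with the highest CPM, was at 135, 147, 116, 141 and 139.7 CPM in gCtl, at 171 CPM in each g1 library and at 101 and 126 CPM in g2. The g1 libraries lay above gCtl and the g2 libraries overlapped it, with log2 fold changes of 0.34 (SE 0.13, adjusted p = 0.0807) and −0.26 (SE 0.15, adjusted p = 0.231) in edgeR's test. TIMM17A, TIMM17B and TIMM21 passed in no comparison.

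None of the 7 genes of the TIM22 complex and its chaperones passed in the knockdown comparison, in which their median log2 fold change was −0.12. A pair of small TIMs set the guides apart. TIMM10, which forms the chaperone that carries hydrophobic precursors with TIMM9, was at 37.9, 57.1, 35.4, 46.9 and 42.9 CPM in gCtl, at 44.4, 43.5 and 36.3 CPM in g1, and at 20.5 and 23.1 CPM in g2. It was 2.02-fold lower with g2 than in gCtl (log2 fold change −1.01, SE 0.22, adjusted p = 0.00397, edgeR) and 1.89-fold lower than with g1 (−0.92, SE 0.23, adjusted p = 0.0343, edgeR). The call against g1 was lost without gCtl replicate 4, g1 replicate 1 or 2, or either g2 library (adjusted p 0.0548 to 0.102). TIMM8B, a partner of TIMM13 in the other chaperone, was at 354, 396, 295, 341 and 348 CPM in gCtl, at 368, 393 and 378 CPM in g1, and at 179 and 278 CPM in g2. Both g2 libraries were below the rest, with log2 fold changes of −0.60 against gCtl (SE 0.18, adjusted p = 0.0227, edgeR) and −0.73 against g1 (SE 0.19, adjusted p = 0.0417, edgeR). The call for TIMM8B against g1 was lost without any single library except gCtl replicate 5 and g2 replicate 2 (adjusted p 0.0537 to 0.168), and that against gCtl without gCtl replicate 2 (0.0512) or g2 replicate 1 (0.185). TIMM13 had the highest CPM of the group and overlapped between all groups, at 291 to 477 CPM in gCtl, 342 to 418 CPM in g1 and 247 and 467 CPM in g2 (log2 fold change 0.04, SE 0.18, adjusted p = 0.907, edgeR).

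Among the 9 tested carriers of adenine nucleotides and phosphate, the ADP/ATP translocases differed from each other. SLC25A5, the translocase form typical of proliferating cells, was at 62.0, 23.0, 27.5, 53.3 and 6.61 CPM in gCtl, at 3.24, 3.78 and 5.66 CPM in g1, and at 21.3 and 5.27 CPM in g2. Its log2 fold change was −2.13 (SE 0.55, adjusted p = 0.0124, edgeR), and −2.97 in g1 (SE 0.62, adjusted p = 0.00393). As for TOMM6, gCtl replicate 5 and g2 replicate 1 overlapped across the groups, and the knockdown log2 fold change was −1.81 to −2.91 with any 1 library left out. The same libraries stood out in RPL27 and RPL39, ribosomal protein genes picked after their values were seen: RPL27 was at 442, 301, 269.6, 386 and 127 CPM in gCtl, 118, 115 and 119.6 CPM in g1, and 242 and 127 CPM in g2. The part of this library pattern in the SLC25A5 result was not tested.

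SLC25A6, a widely expressed translocase, was at 461, 540.2, 374, 406 and 443 CPM in gCtl, at 469, 362 and 382 CPM in g1, and at 349 and 228 CPM in g2. With g2 both libraries lay below all gCtl libraries (log2 fold change −0.62, SE 0.20, adjusted p = 0.0289, edgeR), and without g2 replicate 2 the log2 fold change was −0.35 (adjusted p = 0.298), without gCtl replicate 2 −0.54 (adjusted p = 0.0647). SLC25A4, the form of heart and muscle, was at 19.3 to 29.1 CPM in gCtl and 21.7 to 27.7 CPM in the knockdown libraries (log2 fold change 0.01, SE 0.17, adjusted p = 0.978, edgeR). SLC25A31, the form of the testis, had 1 estimated count in 1 g1 library and none elsewhere. SLC25A3, the phosphate carrier, was at 597, 474, 401, 493 and 318 CPM in gCtl and at 299 to 473 CPM in the knockdown libraries, which overlapped (log2 fold change −0.35, SE 0.17, adjusted p = 0.153, edgeR). Transcripts annotated as protein-coding held 16.3% of its counts, and over these alone the log2 fold change was 0.71 (SE 0.24, adjusted p = 0.0541, edgeR). A pair of carriers were higher with g2 alone, namely SLC25A24, an ATP-magnesium/phosphate carrier regulated by calcium (log2 fold change 0.82, SE 0.24, adjusted p = 0.0203), and SLC25A16 (0.61, SE 0.19, adjusted p = 0.0253), both by edgeR. SLC25A24 was at 149 and 125 CPM in g2 against 55.9 to 102 CPM in gCtl, and SLC25A16 at 58.5 and 54.6 CPM against 33.9 to 41.1 CPM. The call for SLC25A24 was lost without either g2 library (adjusted p 0.115 and 0.0533), and that for SLC25A16 without gCtl replicate 2 (0.0536) or either g2 library (0.0948 and 0.0775).

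The carriers of amino acids and carnitine had the lowest median log2 fold change of the role groups in the knockdown comparison. It was −0.56 over 9 tested genes, against 0.03 over all genes. Of the 9, 3 passed as lower (SLC25A20, SLC25A22 and SLC25A38, against 10.8% of all genes) and 1 as higher (SLC25A45, against 8.31%). SLC25A20, the carnitine/acylcarnitine carrier through which long-chain fatty acids enter for oxidation, was at 5.57, 5.27, 5.25, 8.23 and 3.97 CPM in gCtl, at 1.74, 2.21 and 0.913 CPM in g1, and at 0.273 and 0.659 CPM in g2. Every knockdown library was below every gCtl library, and the log2 fold change was −2.29 (SE 0.45, adjusted p = 0.00283, edgeR). The counts behind it were 15 to 23 per gCtl library, 5 to 7 per g1 library, and 1 and 3 in g2, so that the fitted log2 fold change of −3.45 in g2 (SE 0.66) rests on 4 counts. The g1 call was lost without g1 replicate 3 (log2 fold change −1.50, adjusted p = 0.0738). Taken from the counts, SLC25A20 was 3.82 times lower in g1 (95% interval 2.31 to 6.63) and 12.7 times lower in g2 (4.81 to 47.8), with exact binomial intervals that cover counting error only.

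SLC25A22, a glutamate carrier, was at 7.05, 8.04, 7.61, 7.51 and 5.82 CPM in gCtl, at 2.74, 3.78 and 2.92 CPM in g1, and at 3.55 and 3.08 CPM in g2. The knockdown libraries formed a narrow band at less than the lowest gCtl value, 2.24-fold lower (log2 fold change −1.17, SE 0.28, adjusted p = 0.00788, edgeR). With g1 alone it was −1.20 (SE 0.34, adjusted p = 0.0211) and with g2 alone −1.12 (SE 0.39, adjusted p = 0.0459), the latter lost when any 1 library other than gCtl replicate 5 was left out (adjusted p 0.0509 to 0.204), and the former without g1 replicate 1 or 3 (0.0743 and 0.0823). SLC25A38, which brings glycine in for haem synthesis, was at 17.4, 34.4, 29.6, 27.9 and 27.5 CPM in gCtl, at 19.2, 19.9 and 18.98 CPM in g1, and at 16.1 and 15.2 CPM in g2. Here gCtl replicate 1 lay among the knockdown libraries, the log2 fold change was −0.62 (SE 0.19, adjusted p = 0.0284, edgeR), and without gCtl replicate 2, 3 or 4 the adjusted p was 0.0880, 0.0637 or 0.0622; without g2 replicate 2 the log2 fold change of −0.58 was under the minimum. SLC25A13, an aspartate/glutamate carrier of the malate-aspartate shuttle and the member with the highest CPM in this group, was at 152 to 224 CPM in gCtl, at 145, 156 and 134 CPM in g1, and at 150.1 and 85.7 CPM in g2. It passed with g2 (log2 fold change −0.75, SE 0.21, adjusted p = 0.0157, edgeR), not without g2 replicate 2 (−0.40, adjusted p = 0.230), and in the knockdown comparison it was 1.48-fold lower (adjusted p = 0.0229), short of the minimum.

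SLC25A45 was the 1 member that was higher in the knockdown comparison. It was at 20.7, 17.8, 27.6, 21.0 and 27.6 CPM in gCtl, at 33.5, 27.7 and 34.5 CPM in g1, and at 36.3 and 58.5 CPM in g2. The groups just missed each other, and the log2 fold change was 0.73 (SE 0.21, adjusted p = 0.0209, edgeR), with 0.47 in g1 (adjusted p = 0.119) and 1.05 in g2 (adjusted p = 0.00394). Without g2 replicate 2 the log2 fold change in the knockdown comparison was 0.51 (adjusted p = 0.04996; 1.5-fold not reached), and without gCtl replicate 1, 2 or 4 the adjusted p was 0.0508, 0.0600 or 0.0530. The g2 call was lost without g2 replicate 2 (log2 fold change 0.66, adjusted p = 0.113). Among its transcripts with 3 counts or more over the libraries, retained-intron and nonsense-mediated decay transcripts held all counts and protein-coding ones 0%, so that no value with protein-coding transcripts alone could be had.

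Of 5 tested di- and tricarboxylate and uncoupling-type carriers, SLC25A1 passed in the knockdown comparison. SLC25A1, which exports citrate for fatty acid and sterol synthesis, was at 56.8, 46.9, 55.3, 60.5 and 46.3 CPM in gCtl, at 32.7, 27.1 and 24.3 CPM in g1, and at 38.7 and 19.3 CPM in g2. All knockdown libraries were below all gCtl libraries, and it was 1.87-fold lower (log2 fold change −0.90, SE 0.18, adjusted p = 0.00303, edgeR), with −0.92 in g1 (SE 0.21, adjusted p = 0.00686) and −0.88 in g2 (SE 0.25, adjusted p = 0.0159). Without g2 replicate 2 the log2 fold change in g2 was −0.45 (adjusted p = 0.224). SLC25A10, the dicarboxylate carrier, was lower with g1 (log2 fold change −1.34, SE 0.34, adjusted p = 0.0116, edgeR), at 6.23, 6.31 and 3.65 CPM against 7.14 to 19.7 CPM in gCtl, and not without g1 replicate 3 (−1.09, adjusted p = 0.0705). SLC25A11, the oxoglutarate/malate carrier of the malate-aspartate shuttle, was at 47.1, 46.9, 37.0, 36.8 and 52.1 CPM in gCtl, at 72.3, 71.3 and 60.2 CPM in g1, and at 38.2 and 56.9 CPM in g2. It was higher with g1 (log2 fold change 0.62, SE 0.17, adjusted p = 0.0175, edgeR), and overlapped gCtl with g2. That call was lost without gCtl replicate 3 or g1 replicate 1 or 2 (adjusted p 0.0530, 0.0699 and 0.0626), and without gCtl replicate 4 the log2 fold change of 0.57 was under the minimum.

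Iron carriers gave the member with the smallest adjusted p. SLC25A37, mitoferrin-1, which brings iron in for haem and iron-sulphur clusters, was at 138, 155, 143, 144 and 148 CPM in gCtl, at 85.7, 83.0 and 50.7 CPM in g1, and at 62.6 and 68.4 CPM in g2. The gCtl libraries were tightly grouped at 146 ± 6.29 CPM (SD, n = 5), the knockdown libraries lay far below at 70.1 ± 14.5 CPM (SD, n = 5), and the log2 fold change was −1.06 (SE 0.15, adjusted p = 0.000263, edgeR). It was −0.9992 in g1 (SE 0.17, adjusted p = 0.000891) and −1.15 in g2 (SE 0.19, adjusted p = 0.000703), with every single library left out in turn the knockdown value stayed between −1.14 and −0.96, and the call was kept each time.

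SLC25A28, mitoferrin-2, was at 3.71, 3.61, 5.25, 4.29 and 5.29 CPM in gCtl, at 2.49, 2.52 and 1.83 CPM in g1, and at 2.18 and 2.64 CPM in g2. The groups did not overlap, but with 8 to 20 counts per library the log2 fold change of −0.93 (SE 0.33) had an adjusted p of 0.0499 (edgeR), and leaving out any 1 library moved it to between 0.0547 and 0.114. SLC25A39, a glutathione carrier, was at 46.4, 80.1, 41.2, 44.3 and 56.1 CPM in gCtl, at 40.2, 25.9 and 28.5 CPM in g1, and at 28.7 and 26.2 CPM in g2. The highest knockdown library lay just under the lowest gCtl library, and SLC25A39 was 1.80-fold lower (log2 fold change −0.85, SE 0.20, adjusted p = 0.00710, edgeR), with −0.77 in g1 and −0.97 in g2 (adjusted p = 0.0245 and 0.0142). The g1 call of SLC25A39 was lost without gCtl replicate 2 (adjusted p = 0.0618), g1 replicate 2 (0.103) or g1 replicate 3 (0.0994), and the g2 call without g2 replicate 2 (0.0989). SLC25A40, its close relative, was lower with g2 alone (log2 fold change −0.95, SE 0.31, adjusted p = 0.0336, edgeR), at 8.52 and 8.35 CPM against 11.6 to 23.3 CPM in gCtl, and not without gCtl replicate 2, 3 or 4 or either g2 library (adjusted p 0.0515 to 0.149). SLC25A36, a pyrimidine nucleotide carrier and the member with the highest CPM of this group, was at 105 to 156 CPM in gCtl, at 143, 126 and 122 CPM in g1, and at 95.8 and 82.6 CPM in g2, below the fold-change minimum (log2 fold change in g2 −0.50, SE 0.17, adjusted p = 0.0451, edgeR). The NAD carrier SLC25A51, SLC25A32 and SLC25A33 passed in no comparison.

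The outer membrane member SLC25A46, which takes part in mitochondrial fission and lipid transfer, was at 15.5 to 27.5 CPM in gCtl and 12.5 to 21.9 CPM in the knockdown libraries (log2 fold change −0.21, SE 0.21, adjusted p = 0.511, edgeR). The 15 members that were not tested had between 0 and 99.0 estimated counts over the 10 libraries. In gCtl, g1 and g2 these were 57, 22 and 17 counts for SLC25A42, 54, 24 and 21 for SLC25A21, 50, 29 and 12 for SLC25A53, 42, 27 and 30 for SLC25A34, 37, 18 and 6 for SLC25A14, 32, 25 and 10 for SLC25A18, and 30, 14 and 16 for SLC25A48. SLC25A2, SLC25A12, SLC25A27, SLC25A31, SLC25A41, SLC25A52 and TOMM20L had at most 17 counts in any group, and SLC25A47 had none.

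The guides were then compared with gCtl one by one. With g1, 11 of the 57 members passed (19.3%, against 16.8% of all genes), 10 as lower (17.5%, against 10%) and 1 as higher (1.75%, against 6.79%), and the median log2 fold change was −0.14 over the members and 0.01 over all genes. It was below 0 for 39 members (68.4%, against 49.2% of all genes), and 13 members lay below gCtl without overlap and 4 above (against 13.6% and 12.8% of all genes). With g2, 19 members passed (33.3%, against 23.7%), 16 as lower (28.1%, against 12.4%) and 3 as higher (5.26%, against 11.3%), with medians of −0.31 and 0.02. Here 43 members were below 0 (75.4%, against 49.0%), and 20 lay below gCtl without overlap and 7 above (35.1% and 12.3%, against 19.2% of all genes each way). The count with g2 fell to 8 without g2 replicate 2, and that with g1 to 7 or 5 without g1 replicate 1 or 3. Both comparisons share the gCtl libraries. SLC25A1, SLC25A20, SLC25A22, SLC25A37, SLC25A39 and TIMM23 passed with both guides, all as lower. These are 6 of 57 members, against 5.63% of all genes that were lower with both guides, and neither TIMM23 call was kept for the sum with TIMM23B.

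**Figure D4:**
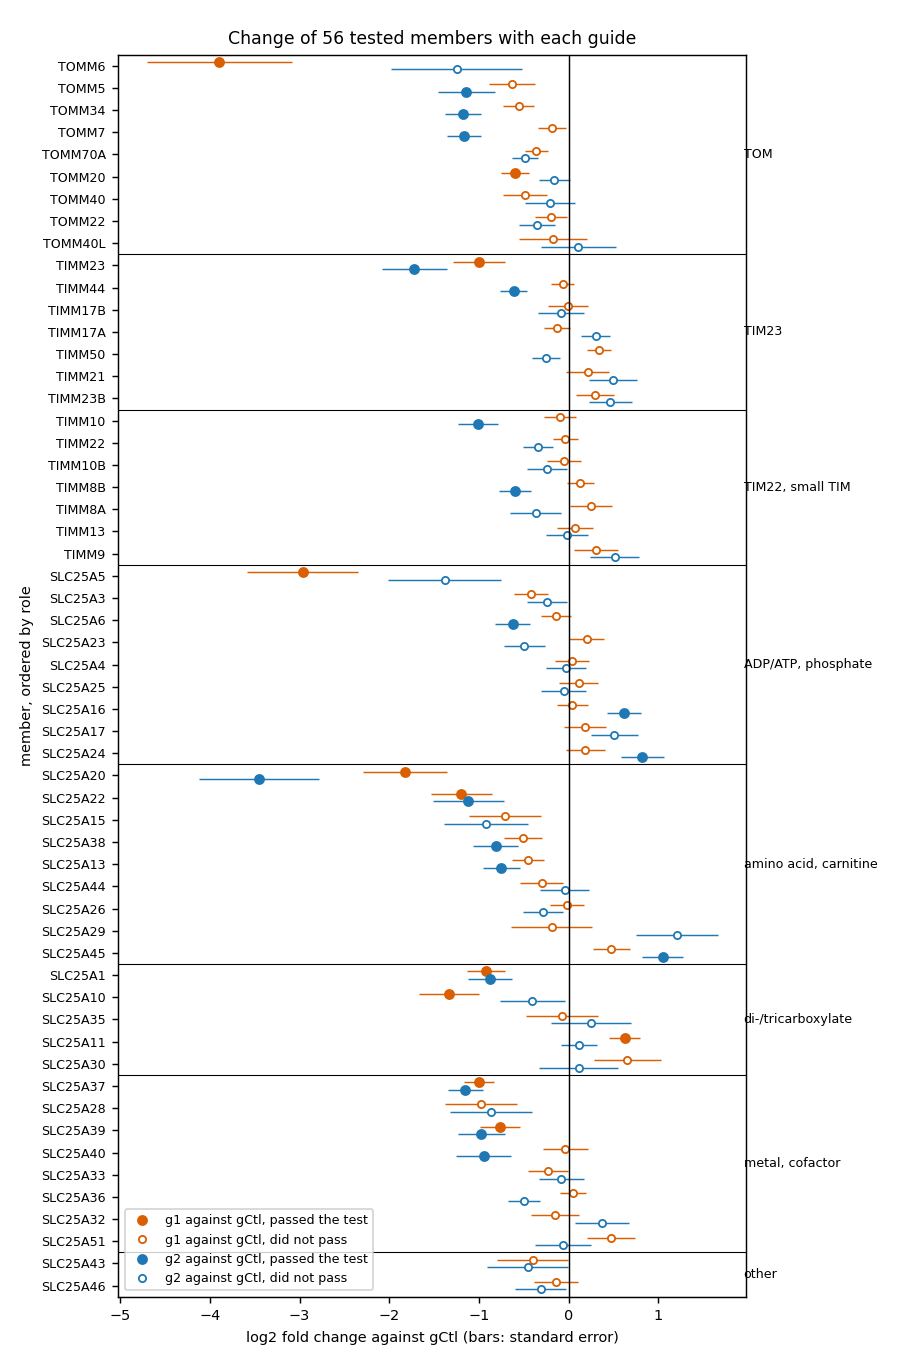
Log2 fold change of 56 of the 57 tested members against gCtl with g1 (orange) and g2 (blue), with standard errors as bars and filled points where the test was passed; members are grouped by role. Filled points of both colours lie left of 0 for SLC25A1, SLC25A20, SLC25A22, SLC25A37, SLC25A39 and TIMM23, and TOMM7, TIMM10 and TIMM8B have filled points for g2 alone.

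Compared directly, 3 of 57 members passed between g2 and g1 (5.26%, against 4.74% of all genes), TOMM7, TIMM10 and TIMM8B, each as lower with g2 (against 3.05% of all genes), and none as higher (against 1.68%). The log2 fold change was below 0 for 33 members (57.9%, against 47.6%). The libraries of g2 and g1 did not overlap for 18 members that were lower with g2 and 8 that were higher, against 16.5% of all genes in each direction. Without g1 replicate 1 none of the 3 passed, without gCtl replicate 4, g1 replicate 2 or g2 replicate 1 TOMM7 alone of the 3 did, and without g2 replicate 2 TIMM10 did not (adjusted p = 0.0781). For SLC25A5 the log2 fold change of g2 against g1 was 1.58 (SE 0.73, adjusted p = 0.228, edgeR) and for SLC25A20 it was −1.62 (SE 0.76, adjusted p = 0.237), so a difference between the guides was not detectable for these genes at this spread. Of 8 proliferation genes, 2 were lower in the knockdown comparison (MCM2 and CDK1, against 10.8% of all genes) and 5 with g2 (against 12.4%). The list summed to 2028 to 2951 RPM in gCtl, 1241 to 3048 RPM in g1, and 1261 and 1471 RPM in g2. Most of the sum was TOP2A and MKI67, with means of 1350 and 574 RPM in gCtl. Both g2 libraries were below gCtl in this sum as in TOMM7, TIMM10 and TIMM8B. So was g1 replicate 3 in the sum (1241 RPM) and in TOMM7 (353 CPM). Its TIMM10 and TIMM8B, at 36.3 and 378 CPM, were within the gCtl range. The part of proliferation in the results for TOMM7, TIMM10 and TIMM8B was not tested.

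From a list of 35 partners of import and carrier transport (motor subunits, peptidases, sorting and folding factors, mitochondrial pyruvate carriers, uncoupling proteins and porins), 33 were tested, and in the knockdown comparison 5 were lower and 2 higher (against 10.8% and 8.31% of all genes), with a median log2 fold change of −0.22. GRPEL1, the nucleotide exchange factor of the import motor, was higher (log2 fold change 1.004, SE 0.15, adjusted p = 0.000478), as was GFER, the oxidase of the disulphide relay in the intermembrane space (0.86, SE 0.19, adjusted p = 0.00474), both by edgeR. The outer membrane genes VDAC3, a porin, and SAMM50, the core of the sorting and assembly machinery, were lower, with log2 fold changes of −1.11 (SE 0.16, adjusted p = 0.000358) and −0.71 (SE 0.14, adjusted p = 0.00325) in edgeR's test. The porins VDAC1 and VDAC2 were not lower. VDAC1 averaged 288 RPM in gCtl against 32.6 RPM for VDAC3. Its log2 fold change was 0.55 (SE 0.15, adjusted p = 0.0177, edgeR), under the minimum, and that of VDAC2 was 0.24 (SE 0.16, adjusted p = 0.278, edgeR). With g2, VDAC1 passed as higher (0.70, SE 0.18, adjusted p = 0.00957, edgeR). The other 3 partners that were lower in the knockdown comparison were MTCH1, an insertase of the outer membrane (log2 fold change −0.65), ROMO1, a small subunit of the TIM23 complex (−0.82), and HSPE1, the cochaperonin of the matrix (−0.65). ROMO1 was at a mean of 456 RPM in gCtl, 324 RPM in g1 and 129 RPM in g2, and its level in g2 was also under that in g1 (log2 fold change −1.18, SE 0.23, adjusted p = 0.00816, edgeR). HSPA9, the motor's Hsp70, and OXA1L, the insertase of the inner membrane, did not pass in any comparison, with knockdown log2 fold changes of −0.03 (SE 0.15) and 0.10 (SE 0.11).

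The 250 bases before the RefSeq start were searched for words bound by factors known for mitochondrial genes, in 62 members with an entry and 15842 protein-coding genes (GRCh38.p14). The word CCGGAAGT, read on both strands and recognized by ETS factors such as GABP, occurred in 8 of the 62 members (12.9%) and in 5.08% of all genes. Of those 8, TOMM6, TOMM20, TIMM10 and SLC25A24 passed the test in at least 1 comparison, as did 25 of the 57 tested members. In the single comparisons 4.74% to 23.7% of all genes passed. The share of all genes that passed in at least 1 was not computed, so neither count can be read as unusual. A link between the word and the calls was not tested. The words of the named genes are shown with 11 bases on each side or up to the start, with the word in capitals.
TOMM6, chr6:41787603-41787632, plus strand: gccggtagcagCCGGAAGTgccagaccgga
TOMM20, chr1:235128841-235128870, minus strand: gttgactgggaCCGGAAGTggcgtgtgctc
TIMM10, chr11:57530755-57530778, minus strand: ggactttcctcCCGGAAGTaaccc
SLC25A24, chr1:108200408-108200437, minus strand: ccagctccctcACTTCCGGctctctggagg
TOMM20 and TOMM6 were lower with g1, TIMM10 was lower with g2 and SLC25A24 was higher with g2. The sum of TOMM6 and PRICKLE4, most of which was PRICKLE4, was not called. The E-box word CACGTG occurred in 12.9% of the members and 7.84% of all genes, the CRE word TGACGTCA in 4.84% and 2.32%, CCAAT in 41.9% and 34.5%, and TATAAA in 4.84% and 9.23%. The NRF1, YY1 and direct repeat 1 words searched were in no member window and in 1.48%, 0.284% and 0.0126% of all windows.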

How the data were processed

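RNA from 10 Caco-2 libraries was sequenced from the 3′ end (QuantSeq). The authors quantified reads with Kallisto (version 42.5 in the submitters' processing notes) on GENCODE transcripts and deposited estimated counts per transcript. Here the estimated counts were summed per gene and rounded, and the copies of SLC25A6 on X and Y were merged. Tested were protein-coding genes that exceeded 3 RPM in 20% of libraries or more, with edgeR 4.0.16 (R 4.3.3, quasi-likelihood, TMM), with Benjamini-Hochberg adjustment over 11633 genes. Calls were made at adjusted p ≤ 0.05 with a change of 1.5-fold or more. The knockdown comparison pooled g1 and g2, and a fit with 3 groups gave each guide and their difference. The standard error was the log2 fold change divided by the square root of the F statistic. The fits were tested on simulated data. Depth was 3838803 to 8730468 counts per library.

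Alternatives were DESeq2 1.42.0, its size factors, library totals, limma 3.58.1 on log2(RPM + 1), voom, glmTreat, other filters, protein-coding transcripts alone, removal of a trend with transcript length, summed copies and each library left out. The members and gene lists were chosen with earlier results of these data known. Named were members called in the knockdown comparison, with both guides or between the guides, the member of each role group with the highest mean CPM, members with a copy that shares sequence, and members called with 1 guide. Positions and transcript comparisons used GENCODE 29 and promoters RefSeq (GRCh38.p14). GENCODE 29 is a later release than the one the authors' methods name. The values of 1 tested member are not reported here, though it is in every count. For shared words, 69 members were looked up, and the transcript of 67 was found in GENCODE 29. Of these, 4 shared at least 10% of the words in the last 400 bases with another gene. At least 50% was shared by 3, namely TOMM5, TOMM6 and SLC25A32, the last with 93.78% in AC012213.5. The part of this sharing in the SLC25A32 result was not tested.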

Additional observations from a re-analysis of the deposited data

Results flagged for a closer look

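In TIMM23, gCtl replicate 5 stood at 13.6 CPM, apart from the next gCtl library at 25.2 CPM. This gap was 0.725 of the group's range and passed Dixon's criterion, which chance alone meets in about 1 in 20 groups, and 57 groups were examined. The summed level of TIMM23 and TIMM23B in that library was 52.1 CPM, against 52.7 to 64.8 CPM in the other gCtl libraries.

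TOMM7, TIMM10 and TIMM8B differed between the guides in edgeR's test of g2 against g1, with log2 fold changes of −0.98, −0.92 and −0.73. Mitochondrially encoded genes took 12.0 to 16.8% of counts in g2 and 18.99 to 20.6% in g1, and the part of this in the result was not tested.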

How the results depend on the processing

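Of 1147 values that the 46 called fold changes took under the alternatives, 965 kept their direction and call, 181 lost the call and 1 reversed, TOMM6 summed with PRICKLE4 (0.0322), an alternative chosen after seeing the data, as were the alternatives for the partner genes and the left-out libraries for LHFPL3-AS2. Called under every alternative were SLC25A20 and SLC25A37 (knockdown and g2), TOMM34 and TOMM7 (g2). With glmTreat, which tests against the 1.5-fold minimum itself, 2 members passed in the knockdown comparison, 2 with g1, 5 with g2 and 0 between the guides. Between the guides the count was 6 with library totals, 7 with limma on log2(RPM + 1), 1 with protein-coding transcripts alone and 0 when g1 and g2 alone were fitted. Removal of the trend with transcript length ended 9 of the 46 calls and left 10 members called in the knockdown comparison, 11 with g1, 15 with g2 and 2 between the guides. The partner genes called numbered 11 with limma and 2 with glmTreat. With 1 library left out, 8 to 14 members were called in the knockdown comparison (8 without gCtl replicate 4), 5 to 13 with g1, 8 to 21 with g2, 0 to 4 between the guides, and 5 to 10 partner genes. Scaling by library totals moved the median of all genes by −0.17 in g2 and −0.13 between the guides, and that of the members to −0.49 and −0.26.

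Some uncalled knockdown fold changes changed sign. SLC25A4 was −0.0842 with library totals, −0.0769 with limma, −0.00293 with filterByExpr, −0.0320 with all biotypes, −0.0330 with the length trend removed, −0.45 with protein-coding transcripts alone, and −0.0717 to 0.0822 with 1 library left out. TIMM13 was −0.0461 with library totals, −0.00293 with all biotypes, −0.0655 with limma and −0.0733 to 0.16 with 1 library left out. TIMM8B was 0.18 with the length trend removed and −0.21 to 0.0164 with 1 library left out. With protein-coding transcripts alone TIMM50 was −0.22, and SLC25A3, at −0.35 over all transcripts, was 0.71 (adjusted p = 0.0541). The cause was not tested. No paired analysis was possible because the labels give the libraries no replicate numbers. Per library, SLC25A20 had 1 to 23 counts, SLC25A22 11 to 29 and SLC25A28 8 to 20.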
